A study of Mus musculus with 8 samples.

Results

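Laminin-332 and the hemidesmosome form the adhesion complex that ties epithelial cells to their basement membrane, and 8 genes of this complex were followed in developing mouse molars. They were taken by name from the deposited count table: Lama3 and Lamb3, which encode laminin chains; Itga6, Itgb4, Cd151 and Col17a1, which encode proteins of the cell membrane; and Plec and Dst, which encode cytoplasmic linkers. All 8 were found among the 54532 genes of the table, and all 8 were among the 16440 genes with enough counts to be tested. RNA had been sequenced from first molar enamel organs of C57BL/6 wild type (wt) pups at postnatal day 5 (P5), when ameloblasts secrete enamel matrix, and at postnatal day 12 (P12), when the enamel matures. There were 4 libraries at each age, each from a pool of 5 pups, and the animals received no treatment. The soft tissue of the pulp was removed before the remaining molar was homogenised, so that a library held every cell type left on the tooth, and poly(A) RNA was captured. The P5 libraries carry the replicate numbers 1, 3, 4 and 5 and the P12 libraries 1, 2, 3 and 4.

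Laminin-332 is a secreted trimer of laminin chains that is laid down in the basement membrane. On the cell side it is bound by integrin alpha 6 beta 4, which recruits plectin and the epithelial form of dystonin (BP230), and these hold the keratin filaments, while collagen XVII and the tetraspanin CD151 complete the plaque. In teeth the complex is known for inherited enamel defects when its genes are lost, and maturation ameloblasts are attached to the enamel surface by a specialised basal lamina that is rich in laminin-332.

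The members lie on 7 chromosomes. On the GRCm38 coordinates of the deposited table, Lamb3 (ENSMUSG00000026639) spans chr1:193207699-193343878 on the plus strand. Itga6 (ENSMUSG00000027111) spans chr2:71745616-71858416 and Itgb4 (ENSMUSG00000020758) chr11:115974709-116008412, both on the plus strand. Cd151 (ENSMUSG00000025510) lies at chr7:141467392-141471473 on the plus strand and Col17a1 (ENSMUSG00000025064) at chr19:47646344-47692094 on the minus strand. Plec (ENSMUSG00000022565) lies at chr15:76170974-76232574 on the minus strand, and Dst (ENSMUSG00000026131) at chr1:33908225-34308661 on the plus strand. All 8 are annotated as protein coding, and counts were per gene, so that the epithelial and other isoforms of Dst, Plec and Lama3 cannot be told apart. In GENCODE M21, Lamb3, Itga6 and Col17a1 share no exonic bases with another gene. The shared part is 1.83% of the exonic bases in Lama3, 3.63% in Dst, 7.04% in Cd151 and 7.66% in Itgb4, all with genes on the opposite strand, and 1.13% in Plec with Parp10 on the same strand. The overlapping genes held between 0 and 340 counts per library, against at least 2266 counts for these members.

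Sequence before an annotated start was at hand in RefSeq (GRCm38.p6) for 4 of the 8 members, and is shown to give the context of genes that moved in opposite directions: Lamb3, which was lower at P12, Col17a1 and Cd151, which were higher by the usual library scaling, and Dst, which did not pass the test and has several starts far apart. Each window is at most 250 bases before a start, cut where an exon of the gene begins, and is written 5′ to 3′ on the strand of the gene. Capitals mark letters found on either strand, which are GGGCGG for a GC box, TATAAA for a TATA box and, for the box of that name, CCAAT. The windows are chr1:193301744-193301992 on the plus strand for Lamb3, chr19:47692095-47692292 on the minus strand for Col17a1, chr7:141467112-141467361 on the plus strand for Cd151, and chr1:34011345-34011594 and chr1:34160010-34160259 on the plus strand for an upstream and a downstream start of Dst.
Lamb3: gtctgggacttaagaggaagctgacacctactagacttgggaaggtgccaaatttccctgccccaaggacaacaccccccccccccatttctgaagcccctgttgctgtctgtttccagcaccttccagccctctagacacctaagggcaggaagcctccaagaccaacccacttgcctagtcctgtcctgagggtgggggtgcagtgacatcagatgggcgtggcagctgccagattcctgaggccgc
Col17a1: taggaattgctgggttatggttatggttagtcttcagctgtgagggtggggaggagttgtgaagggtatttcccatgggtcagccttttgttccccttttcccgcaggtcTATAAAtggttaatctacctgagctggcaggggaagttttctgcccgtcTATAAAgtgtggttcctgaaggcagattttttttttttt
Cd151: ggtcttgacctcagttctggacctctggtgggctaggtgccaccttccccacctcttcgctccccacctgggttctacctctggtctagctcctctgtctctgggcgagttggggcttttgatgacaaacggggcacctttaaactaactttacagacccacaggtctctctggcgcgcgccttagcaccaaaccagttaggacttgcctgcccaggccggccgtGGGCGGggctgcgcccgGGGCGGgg
Dst, upstream start: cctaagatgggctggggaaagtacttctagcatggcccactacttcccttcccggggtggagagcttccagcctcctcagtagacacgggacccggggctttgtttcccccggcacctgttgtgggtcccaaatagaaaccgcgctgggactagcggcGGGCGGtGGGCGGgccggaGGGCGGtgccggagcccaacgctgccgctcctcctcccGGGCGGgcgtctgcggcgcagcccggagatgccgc
Dst, downstream start: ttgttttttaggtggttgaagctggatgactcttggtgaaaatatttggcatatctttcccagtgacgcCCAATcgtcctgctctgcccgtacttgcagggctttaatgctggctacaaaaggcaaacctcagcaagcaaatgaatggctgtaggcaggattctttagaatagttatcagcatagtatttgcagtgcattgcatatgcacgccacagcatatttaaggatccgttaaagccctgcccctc
The window of the upstream Dst start holds 4 GC boxes with 68.8% G and C, that of Cd151 holds 2 GC boxes, that of Col17a1 holds TATAAA at 2 places, that of the downstream Dst start holds 1 CCAAT with 45.2% G and C, and that of Lamb3 holds none of these letters. The AP-1 letters TGANTCA were also searched on both strands and occur in none of the printed windows. Of all 32851 RefSeq windows of 250 bases, 32.7% hold GGGCGG, 33.8% CCAAT, 12.4% TATAAA and 6.75% TGANTCA. These matches describe the letters only.

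Total counts were between 16574548 and 22013456 per library, and none of the replicate pairs agreed within counting noise. Values below are normalized counts, that is counts divided by the effective library size after TMM scaling and multiplied by its mean, 19006280. Differences are log2 fold changes at P12 relative to P5 fitted in edgeR, whose quasi-likelihood p-values were adjusted over all 16440 genes by Benjamini-Hochberg, and a gene is said to rise or fall at an adjusted p under 0.05. Mesenchymal markers (Col1a1, Col1a2, Col3a1, Dcn, Lum, Vim) summed to between 742411 and 1068101 normalized counts in the 8 libraries, although the labels call the cells epithelially derived. Epithelial markers (Epcam, Cdh1, Krt5, Krt14) summed to between 90040 and 324806. Ameloblasts are epithelial too, and their markers (Amelx, Ambn, Enam, Mmp20, Klk4, Amtn, Odam, Slc24a4, Wdr72) summed to 4979439 to 5618149 in P5 libraries and 594004 to 1104248 in P12 libraries. Such sums follow their most abundant genes and do not measure shares of cells. In such bulk samples, fewer cells of a type and less RNA per cell cannot be told apart.

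Of the 8 members, 4 rose from P5 to P12 (Itga6, Plec, Col17a1 and Cd151), 3 fell (Lamb3, Lama3 and Itgb4) and Dst did not pass the test, a count that depends on the scaling described further on. Among all genes tested, 28.8% were called higher and 28.4% lower, so that many genes outside the complex changed as well, and nothing particular to the complex is read from its counts. With a change of 1 or more on the log2 scale also required, Itga6 was higher and Lamb3 lower, as were 11.3% and 10.2% of all genes tested. The median log2 fold change of the members was 0.19, against 0.01 over all genes tested. The 4 risers had every P12 library above every P5 library and the 3 that fell had every P12 library below, which 26.0% and 26.6% of all genes tested also had. By TMM scaling the complex thus did not move as a unit: Lama3 and Lamb3 went down together, while the 2 subunits of their integrin receptor went in opposite directions. Of these subunits, Itgb4 did not pass the test by total count (-0.04, adjusted p = 0.72, edgeR). By the epithelial reference Itga6 did not pass it (0.22, adjusted p = 0.053, edgeR).

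**Figure D1:**
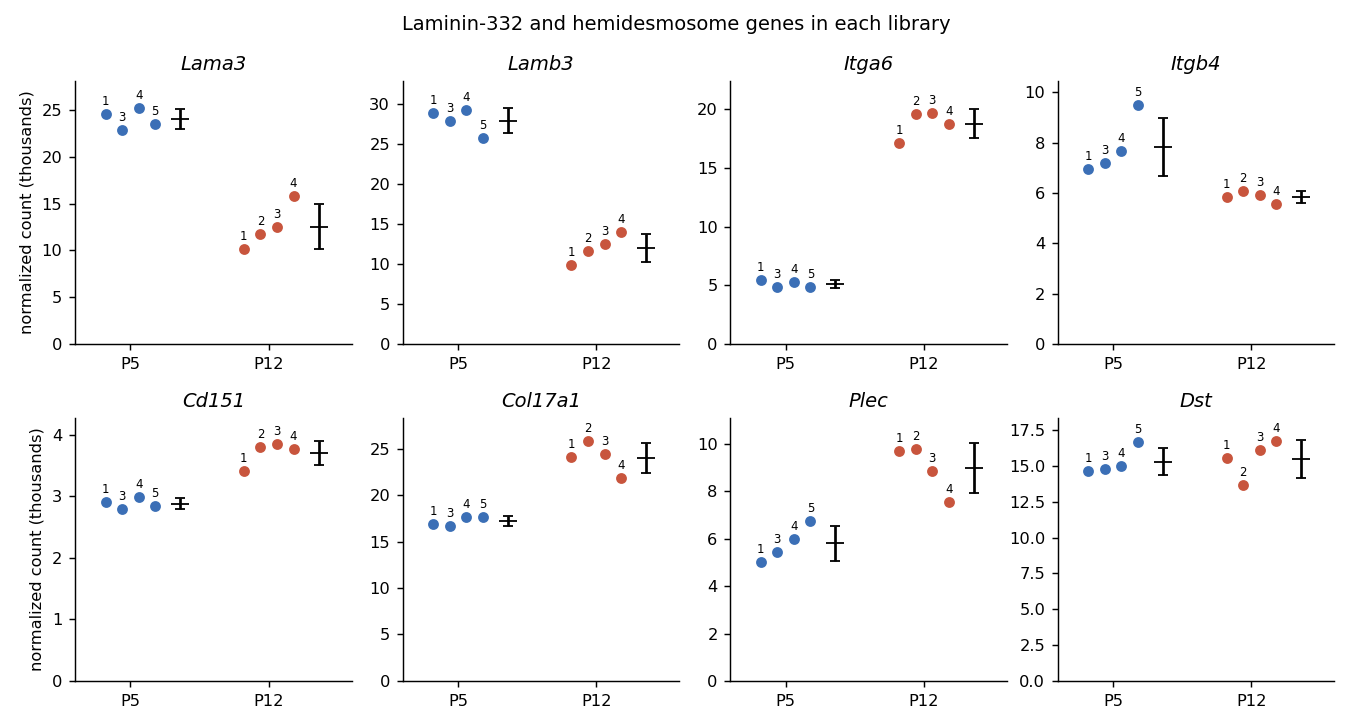
Normalized counts of the 8 members in each of the 8 libraries (vertical axes start at 0; points are libraries with their replicate numbers, black marks are means with SD, n = 4 per age). The panel of Dst is the one with overlapping ages, and Itga6 goes from between 4832 and 5484 to between 17087 and 19643. With epithelial reference scaling Plec, Col17a1 and Cd151 are lower at P12 and Itga6 does not pass the test.

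Both laminin members fell, by each of the 3 scalings compared. Lamb3, the beta 3 chain that occurs in laminin-332, was at 28901, 27873, 29271 and 25857 normalized counts in P5 replicates 1, 3, 4 and 5, and at 9890, 11643, 12578 and 14051 in P12 replicates 1, 2, 3 and 4. The ages did not overlap, and the highest P12 value was in replicate 4. The difference was a log2 fold change of -1.22 (SE 0.11, adjusted p = 2.9e-06, edgeR), or 2.32-fold lower, with an exact permutation p of 0.0286, the smallest that 4 against 4 libraries allow in a two-sided test.

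Lama3 (ENSMUSG00000024421, chr18:12333819-12583013 on the plus strand) encodes the alpha 3 chain that integrins bind. It was at 24567, 22869, 25244 and 23503 normalized counts at P5 and at 10154, 11742, 12509 and 15787 at P12. Again every P12 library was below every P5 library, and P12 replicate 4 was the highest of its age. The log2 fold change was -0.94 (SE 0.12, adjusted p = 5.6e-05, edgeR), or 1.92-fold lower. Leaving out single libraries gave between -1.07, without P12 replicate 4, and -0.86.

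The Lama3 to Lamb3 ratio per kilobase was -0.93, -0.99, -0.91 and -0.84 on the log2 scale at P5 and -0.66, -0.69, -0.71 and -0.53 at P12. It was 0.27 higher at P12 without overlap (exact permutation p = 0.0286), so that Lama3 fell by less than its partner Lamb3.

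The receptor subunits parted. Itga6, the alpha 6 integrin, was at 5484, 4844, 5303 and 4832 normalized counts at P5 and at 17087, 19598, 19643 and 18716 at P12. This was the change of greatest size among the members, a log2 fold change of 1.87 (SE 0.08, adjusted p = 1.1e-08, edgeR), or 3.67-fold higher by TMM scaling, against 0.22 (adjusted p = 0.053, edgeR) by the epithelial reference scaling described further on. The 4 values at each age lay close together, and the lowest P12 library, replicate 1, was well above the highest P5 library.

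Itgb4, the beta 4 integrin whose long tail binds plectin, was at 6950, 7178, 7664 and 9475 normalized counts at P5 and at 5840, 6089, 5937 and 5545 at P12. Every P12 library was below every P5 library, with P5 replicate 5 the farthest from the rest. The log2 fold change was -0.42 (SE 0.10, adjusted p = 0.0031, edgeR), or 1.34-fold lower, and it was -0.04 (adjusted p = 0.72, edgeR) when libraries were scaled by total count alone. Without P5 replicate 5 and P12 replicate 4 it was -0.29 (adjusted p = 9.1e-04, edgeR).

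The Itga6 to Itgb4 ratio within a library, in which the library's scaling cancels, had the change of greatest size among the 7 ratios between members. Per kilobase of gene model it was -0.70, -0.93, -0.89 and -1.33 on the log2 scale in P5 replicates 1, 3, 4 and 5 and 1.18, 1.32, 1.36 and 1.39 in P12 replicates 1, 2, 3 and 4. Itgb4 was thus above Itga6 in all 4 P5 libraries and below it in all 4 P12 libraries. The mean ratio went from -0.97 ± 0.26 to 1.31 ± 0.09 (SD, n = 4), a change of 2.28 on the log2 scale or 4.86-fold (exact permutation p = 0.0286).

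Integrin alpha 6 also pairs with beta 1, and alpha 3 beta 1 is the other main receptor for laminin-332. Itgb1 rose from 6953 ± 468 to 13212 ± 252 normalized counts (SD, n = 4), a log2 fold change of 0.93 by TMM scaling, while Itga3 fell from 3505 ± 191 to 1534 ± 128, a log2 fold change of -1.19 (adjusted p of 8.4e-07 and 1.8e-07, edgeR). Per kilobase, the Itga6 to Itgb1 ratio was 0.94 higher at P12 on the log2 scale and the Itga6 to Itga3 ratio 3.06 higher, both without overlap (exact permutation p = 0.0286 each). These last comparisons were chosen after values were seen.

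Cd151, a tetraspanin that associates with laminin-binding integrins, was at 2914, 2786, 2987 and 2837 normalized counts at P5 and at 3413, 3794, 3849 and 3769 at P12. All P12 libraries were higher, by a log2 fold change of 0.36 by TMM scaling (SE 0.06, adjusted p = 3.8e-04, edgeR), or 1.29-fold, and the change was -1.29 by the epithelial reference. Col17a1, the transmembrane collagen XVII of the plaque, was at 16886, 16651, 17696 and 17653 normalized counts at P5 and at 24090, 25793, 24418 and 21865 at P12. It was higher in all P12 libraries, least so in replicate 4, with a log2 fold change of 0.48 by TMM scaling (SE 0.08, adjusted p = 2.9e-04, edgeR), or 1.40-fold, and of -1.18 by the epithelial reference.

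The cytolinkers differed from each other. Plec, which encodes plectin and links integrin beta 4 to keratin, was at 5039, 5452, 5982 and 6735 normalized counts at P5 and at 9725, 9806, 8877 and 7552 at P12. P5 replicate 5 and P12 replicate 4 were the libraries nearest to each other, and the ages still did not overlap. The log2 fold change was 0.63 by TMM scaling (SE 0.11, adjusted p = 4.3e-04, edgeR), or 1.55-fold higher, and was 0.79 without these 2 libraries and -1.03 by the epithelial reference.

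Dst, whose epithelial product BP230 binds keratin in the same plaque, was at 14655, 14763, 15025 and 16671 normalized counts at P5 and at 15573, 13638, 16105 and 16726 at P12. The ages overlapped, with the lowest and the highest values both at P12. The log2 fold change was 0.02 (SE 0.09, adjusted p = 0.84, edgeR; exact permutation p = 0.8), and the sign turned to values as low as -0.02 when single libraries were left out. The call of Dst followed the scaling, since it was called higher by total count (0.39, adjusted p = 0.0013, edgeR) and lower by the epithelial reference (-1.63, adjusted p = 4.2e-08, edgeR).

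**Figure D2:**
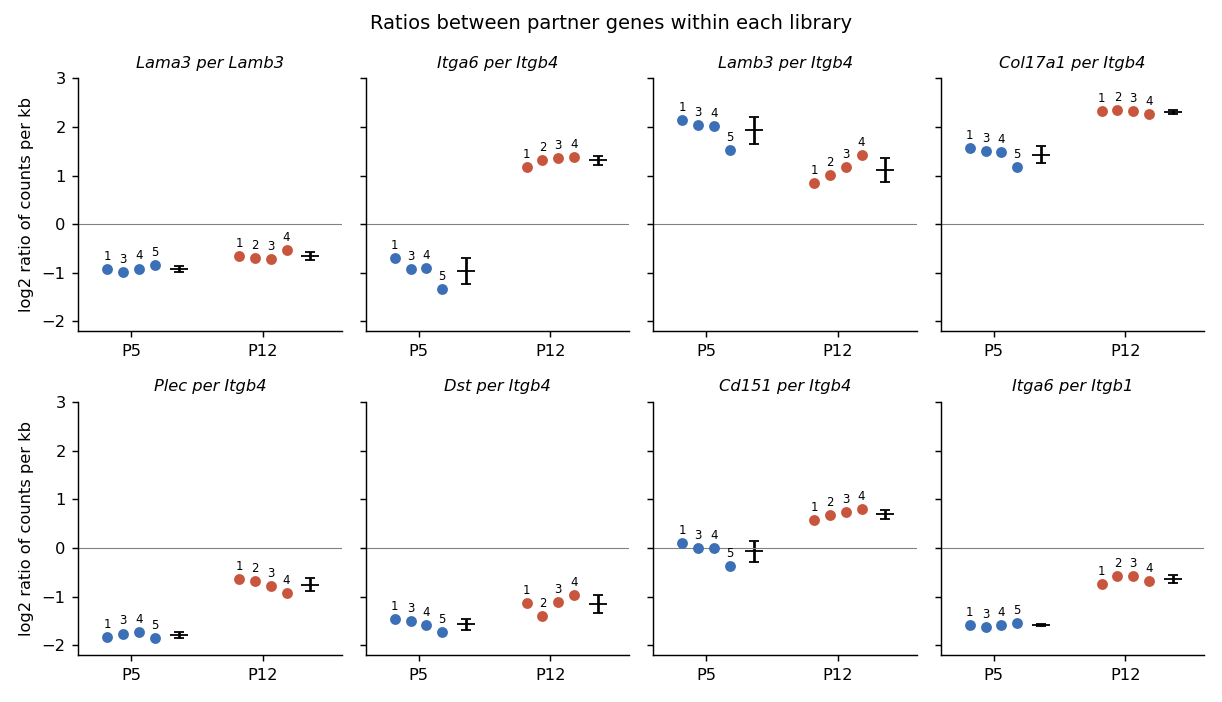
Log2 ratios of normalized counts per kilobase within each library for 7 pairs of members and for Itga6 with Itgb1 (points are libraries with replicate numbers, black marks are means with SD, n = 4 per age). The Itga6 to Itgb4 ratio crosses 0 between the ages, from between -1.33 and -0.70 to between 1.18 and 1.39, and none of the 8 panels shows overlapping ages.

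Relative to Itgb4, the subunit at the core of the hemidesmosome, all the other plaque genes were higher at P12. The ratio per kilobase was higher by 0.89 on the log2 scale for Col17a1, 1.04 for Plec, 0.77 for Cd151 and 0.43 for Dst, and that of Lamb3 was lower by 0.82. Each of these had no overlap between ages (exact permutation p = 0.0286 each, Benjamini-Hochberg adjusted p = 0.0304 over the 17 ratios computed). They share Itgb4 as denominator and are not independent of each other. The Lamb3 to Itgb4 ratio was 2.14, 2.04, 2.02 and 1.53 on the log2 scale at P5 and 0.84, 1.02, 1.17 and 1.43 at P12, so that P5 replicate 5 and P12 replicate 4 nearly met.

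The scaling of libraries decided the sign for several members. The 20 most abundant genes took 34.1% to 35.7% of all counts in P5 libraries and 16.8% to 19.0% in P12 libraries. Scaling by total count alone moved the median change over the tested genes to 0.38 on the log2 scale, and scaling to the summed epithelial reference (Epcam, Cdh1, Krt5, Krt14) moved it to -1.65, because that sum was 90040 to 95878 normalized counts in P5 libraries and 259768 to 324806 in P12 libraries. Krt5 and Krt14 made up between 93.6% and 98.4% of this sum. By total count, 5 members were called higher and 2 lower, where 54.0% and 14.2% of all genes tested were. By the epithelial reference, 7 members were lower and none was called higher (Itga6 was at 0.22 without passing the test), where 90.2% and 3.06% of all genes tested were, so that nothing about the members is read from these counts. A scaling moves all genes of a library alike, so that a change relative to the median of all genes is nearly the same by construction whichever scaling is used. It was 1.87 for Itga6 by TMM, total count and the epithelial reference alike. By these scalings it was between 0.61 and 0.63 for Plec, between 0.47 and 0.48 for Col17a1 and 0.36 for Cd151. It was between -1.23 and -1.21 for Lamb3, between -0.95 and -0.93 for Lama3, between -0.43 and -0.42 for Itgb4, and between 0.01 and 0.02 for Dst.

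**Figure D3:**
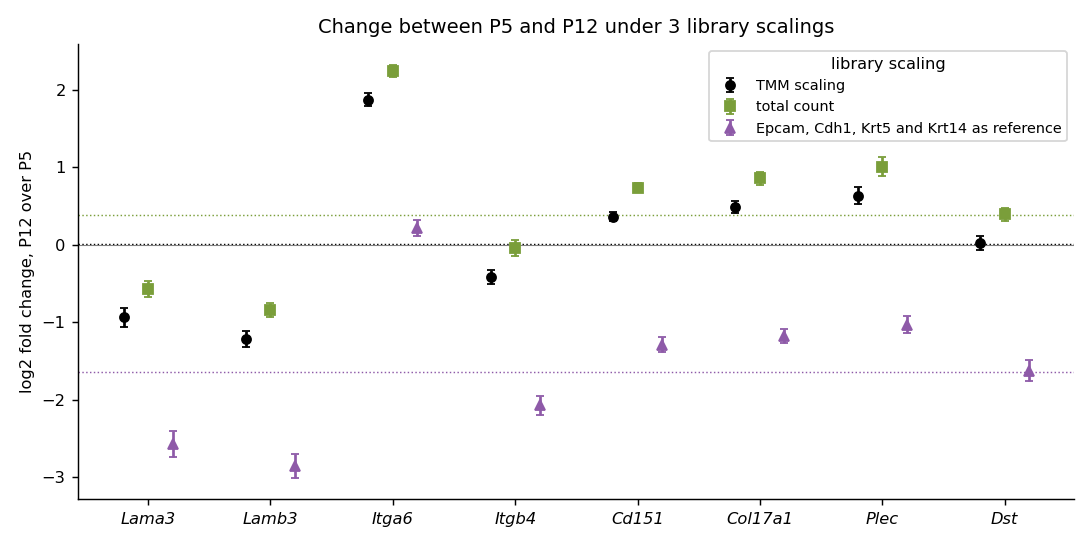
Log2 fold changes of the members at P12 relative to P5 by 3 library scalings (vertical axis in log2 units; points are fitted values with SE from 8 libraries, dotted lines are the medians of all tested genes by each scaling). Lama3 and Lamb3 are lower by all 3, whereas Col17a1, Plec and Cd151 are higher by TMM and total count and lower by the epithelial reference.

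Set against the epithelial reference within each library, the log2 ratio changed by -2.89 for Lamb3, -2.62 for Lama3, -2.07 for Itgb4, -1.64 for Dst, -1.30 for Cd151, -1.18 for Col17a1 and -1.03 for Plec, without overlap between ages (exact permutation p = 0.0286 each). The reference sum itself rose. When libraries were scaled to it, 90.2% of all genes tested were lower, with a median log2 fold change of -1.65. Nothing particular to the members is thus read from these falls. The ratio of Itga6 differed by 0.22 with overlapping ages (exact permutation p = 0.0571). The reference genes did not move alike: by TMM scaling Krt14 changed by 2.22, Krt5 by 1.30 and Epcam by 1.0 on the log2 scale, while Cdh1 changed by -0.31. The change of Itga6, 1.87 by TMM scaling, lay between those of Krt5 and Krt14.

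Levels of different genes can be compared per kilobase of gene model. At P5 Lamb3 led, with 4231 ± 232 normalized counts per kilobase (SD, n = 4). Col17a1 followed at 2987 ± 92.3 and Lama3 at 2238 ± 98.9. Then came Itgb4 at 1114 ± 163 and Cd151 at 1051 ± 32.2, which overlapped, Itga6 at 567 ± 36.5, and Dst at 371 ± 22.9 and Plec at 320 ± 40.4, which overlapped too. At P12 the order had changed: Col17a1 led at 4170 ± 282 normalized counts per kilobase, ahead of Itga6 at 2079 ± 132 and Lamb3 at 1821 ± 264, which overlapped. Cd151 at 1352 ± 72.4 and Lama3 at 1168 ± 221 overlapped as well, followed by Itgb4 at 834 ± 32.7, Plec at 496 ± 57.8 and Dst at 377 ± 32.4. The order within a library does not depend on its scaling, whereas the levels of the ages relative to each other do. The long gene models of Dst and Plec hold exons of several isoforms, and their values per kilobase are averages over the whole model.

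**Figure D4:**
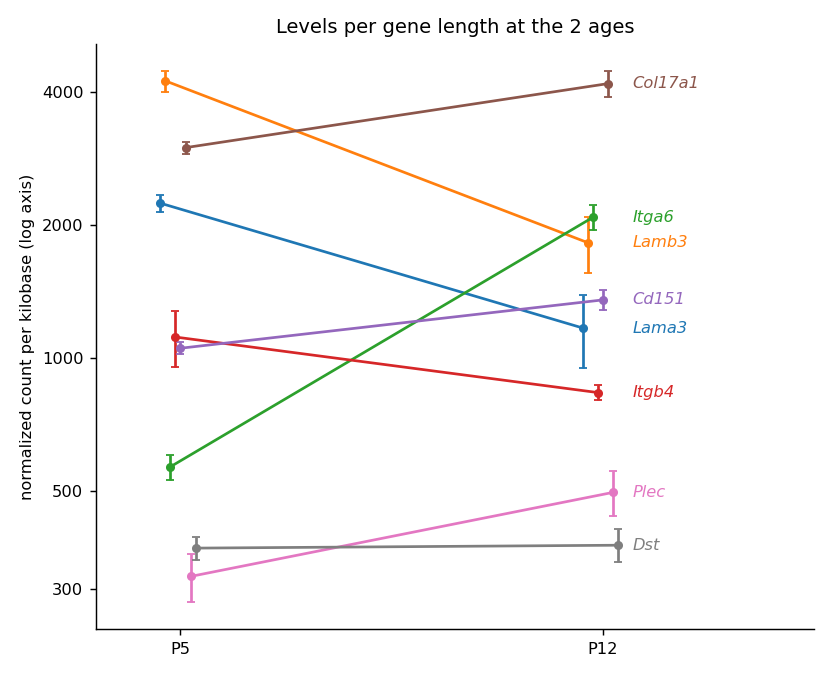
Normalized counts per kilobase of gene model for the members at P5 and P12 (log axis; points are means with SD, n = 4 per age, and lines join the ages of a gene). By TMM scaling, Lamb3 leads at P5 and Col17a1 leads at P12, where Itga6 has moved from below Itgb4 to above it.

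The other genes of the pathway were read from lists and are given as counts, by TMM scaling, by which 28.8% of all genes tested were higher and 28.4% lower. Counts by the other scalings stand beside them to show where directions turn, and are to be read against the shares of all genes tested given above, 54.0% higher and 14.2% lower by total count and 3.06% higher and 90.2% lower by the epithelial reference. Of 8 other laminin chains, 2 rose, 4 fell and 2 did not pass the test, with a median log2 fold change of -0.10. The rises were Lama4 (1.11), a chain of vessel and nerve laminins, and Lamc3 (0.56), and the falls of greatest size were Lama1 (-1.70) and Lama5 (-1.13), an alpha chain found in most epithelial basement membranes (adjusted p between 2.2e-06 and 0.0211, edgeR). Lamc1, the gamma chain of most other laminins, fell by 0.53 and Lamb1 by 0.24. By total count 4 of the 8 were higher and 2 lower, and by the epithelial reference all 8 were lower.

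Among 15 tested genes of the basement membrane, 5 rose and 6 fell by TMM scaling, with a median log2 fold change of -0.35. Col4a6 (1.73) and Col4a5 (1.28), chains of one collagen IV network, rose most, though Col4a6 had between 8 and 143 counts per library, and Fras1 (-2.10) and Npnt (-2.06), which are matrix proteins of epithelial basement membranes, fell most (adjusted p between 8.8e-09 and 0.0043, edgeR). Col7a1, the anchoring fibril collagen on which laminin-332 rests, had a log2 fold change of -0.38 that did not pass the test (adjusted p = 0.074, edgeR). By the epithelial reference 14 of the 15 were lower and none higher. The 5 other laminin receptors included 2 that rose, Itgb1 and Itga7 (0.91), and 3 that fell, Itga3, Bcam (-1.01) and Dag1 (-0.24), while by the epithelial reference all 5 were lower.

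On the cytoplasmic side, 4 of 5 other plakin genes rose by TMM scaling, led by Eppk1 (2.06) and Dsp (1.22), which encodes the desmosomal linker desmoplakin, and Macf1 fell by 0.22 (adjusted p between 4.4e-07 and 0.0094, edgeR). By the epithelial reference 1 of the 5 was higher and 4 were lower. Of the 4 keratins of basal epithelia, Krt14 (2.22) and Krt5 (1.30) rose by TMM scaling and Krt15 (-2.16) and Krt17 (-0.94) fell (adjusted p between 5.3e-08 and 0.0011, edgeR). By the epithelial reference 1 was higher and 3 lower. Krt5 and Krt14 make up nearly all of that reference, so that together they can hardly change against it, and nothing is read from their calls by it. Of 10 other tetraspanins 8 rose and none fell by TMM scaling, among them Cd9 (1.45) and Tspan1 (3.35), the latter with between 0 and 68 counts per library, and 9 were higher by total count. By the epithelial reference 1 of the 10 was higher and 8 were lower.

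Enzymes known to process laminin-332 or collagen XVII included 5 that rose and 1 that fell of 8 tested by TMM scaling. Mmp2 (1.67) and Adam9 (1.34) rose most, and Adam10 (-1.34) fell (adjusted p between 4.1e-08 and 4.3e-05, edgeR), whereas Adam17, a sheddase of collagen XVII, was at 0.01 (adjusted p = 0.91, edgeR). By the epithelial reference 6 of the 8 were lower and none higher. Of 11 genes of focal adhesions, which link integrins to actin, 5 rose and 4 fell by TMM scaling, with Vcl (1.03) and Parva (0.81) as the rises and Ptk2 (-0.45) and Pxn (-0.44) as the falls of greatest size, but 7 were higher and none lower by total count and all 11 were lower by the epithelial reference.

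Amtn and Odam encode proteins of the specialised basal lamina between maturation ameloblasts and enamel. Odam was at 18305, 15868, 16472 and 6497 normalized counts at P5 and at 290679, 365229, 357994 and 346241 at P12, a log2 fold change of 4.57 (adjusted p = 2.8e-07, edgeR). Amtn was at 19787, 16356, 16750 and 5149 at P5 and at 34276, 42585, 56441 and 76919 at P12, a log2 fold change of 1.86 by TMM scaling (adjusted p = 0.0012, edgeR). In both genes P5 replicate 5 was the lowest library. These partners of laminin-332 in the lamina thus rose by TMM scaling between the ages at which Lama3 and Lamb3 fell, and by the epithelial reference Odam alone passed the test as higher.

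**Figure D5:**
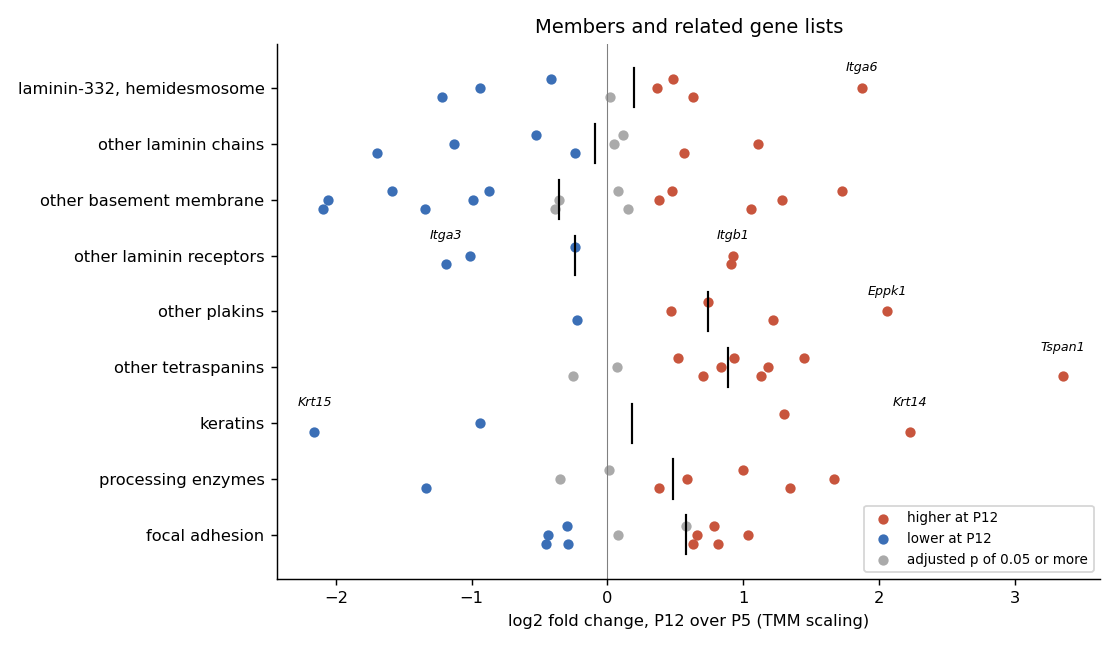
Log2 fold changes at P12 relative to P5 by TMM scaling for the members and the lists of related genes (each point is a gene, coloured by its call; black lines are the medians of the lists). The members spread from -1.22 to 1.87, and the epithelial reference scaling would shift all points so that the median of all genes goes from 0.01 to -1.65, which turns the sign of most rises.

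Markers of other cell types also differed between the ages, here by TMM scaling, by which 28.8% of all genes tested were higher and 28.4% lower. Oral mucosa markers (Krt13, Krt4, Krt6a, Krt6b, Krt24) had sums of 796 to 1571 normalized counts in P5 libraries and of 12087 to 59121 in P12 libraries, where replicate 4 was the lowest, and all 5 rose. Of these only Krt4 overlapped between the ages, at 276 in P12 replicate 4 against 183 to 348 in P5 libraries. Basal cells of oral mucosa are known to carry hemidesmosomes as well. Endothelial markers rose in 6 of 6 cases (sums of 2637 to 3290, then of 5173 to 5483), leukocyte markers in 5 of 5 (1378 to 1971, then 2100 to 2845) and Schwann cell markers in 4 of 7 (722 to 1022, then 1204 to 1737). By the epithelial reference none of the endothelial, leukocyte or Schwann cell markers was higher, and 6 of 6, 3 of 5 and 5 of 7 were lower, while all 5 mucosa markers were still higher. By that reference 3.06% of all genes tested were higher and 90.2% lower. Sums of muscle markers overlapped (683 to 1231, then 731 to 1522), but by TMM scaling 1 of the 7 rose and 3 fell. Mesenchymal sums overlapped too, but 2 of the 6 markers rose, Col3a1 (3.64) and Lum (1.54), and 2 fell, Dcn (-0.49) and Col1a2 (-0.36). By the epithelial reference 1 mesenchymal marker was higher and 4 were lower, and 6 of the 7 muscle markers were lower. The ameloblast markers had 5 genes that rose and 4 that fell, with sums of 4979439 to 5618149 in P5 libraries and of 594004 to 1104248 in P12 libraries. Amtn and Odam stand among the ameloblast markers too, and Krt5 and Krt14 among the epithelial ones. No marker was at 0 in all libraries, and the part of these cells in the changes of the members was not tested. Without P5 replicate 5, the P5 library lowest in Amtn and Odam, and P12 replicate 4, the P12 library lowest in mucosa markers, again 4 members rose and 3 fell, where 29.5% and 29.1% of all genes tested did, with log2 fold changes of -1.34 for Lamb3, -1.08 for Lama3 and 1.85 for Itga6.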

How the data were processed

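First molar enamel organs were profiled by RNA-seq in 8 libraries (4 at P5, 4 at P12; pools of 5 pups). The authors deposited whole-number read counts per gene without normalization, with gene names, GRCm38 coordinates and gene lengths (a deposited value of another kind, in bases). The submitters' processing notes name CASAVA and the build mm39, although the coordinates of 53585 of the 54532 genes equal those of GENCODE M21 for GRCm38. The aligner, the counting program and its use of strand are not given in the sources used here. Without strand, reads of a gene and of its antisense partner cannot be told apart.

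Columns were assigned by their names, which are the titles of the samples. Genes kept by filterByExpr (16440) were compared between the ages, with TMM scaling and no covariate, by glmQLFit and glmQLFTest of edgeR 4.0.16 (R 4.3.3), and p-values were adjusted by Benjamini-Hochberg and called under 0.05. The study's methods name DESeq2, which was run as an alternative (version 1.42.0). The fit was tested on simulated data. The SE printed with an edgeR log2 fold change is its size divided by the square root of the quasi-likelihood F statistic. Single values and within-library ratios, on a log2 scale with a pseudocount of 1, were compared by two-sided exact permutation tests over all 70 splits (scipy 1.17.1). Each library is a separate pool, and p-values measure the spread between these pools. Total counts of 16574548 to 22013456 set the depth, and reads carry no molecular identifiers.

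The members and lists were chosen with earlier results of these data known. Named were all members, of each list the 2 largest rises and 2 largest falls that passed the test, genes that a paragraph on a partner needs (Itga3, Itgb1, Lama5, Amtn, Odam), and per member the 2 genes with the most similar profile among those with a mean of at least 100 normalized counts. Further genes (Lamb1, Lamb2, Lamc1, Dag1, Col7a1, Adam17) and single genes of the marker lists were named after their values were seen. A gene that the rule and a list would also name is not reported here. Motifs were searched in the 250 bases before RefSeq starts. Alternatives were other scalings, filters, thresholds, each library left out, a replicate block and, added after seeing the data, both libraries that stand apart left out.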

Additional observations from a re-analysis of the deposited data

How the results depend on the processing

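The counts of 4 members higher and 3 lower were within 1.5 times under all alternatives except 2: by the epithelial reference 0 were higher and 7 lower, against 3.06% and 90.2% of all genes, and with a change of 1 or more on the log2 scale required, 1 was higher (Itga6) and 1 lower (Lamb3), where 11.3% and 10.2% of all genes were. By total count 5 were higher and 2 lower, against 54.0% and 14.2% of all genes. The epithelial reference reversed Col17a1 (-1.18), Plec (-1.03) and Cd151 (-1.29). It also made Dst, which TMM scaling did not call, lower (-1.63), and Itga6 (0.22) no longer passed the test, as follows from dividing by a sum that rose. Leaving out each library in turn gave 4 higher and 3 lower members each time, and moved the log2 fold change of Dst between -0.020 and 0.079. Over all genes, of 16629 to 16919 tested, these fits gave between 4309 and 4938 higher and between 4364 and 5092 lower. The replicate block over the 6 libraries with shared numbers gave 4 higher and 3 lower members, with 1.83 for Itga6, and over all genes 3867 higher and 3843 lower, against 4076 and 4041 for the same libraries without the block. Same-numbered libraries did not deviate together (correlations of -0.01 to 0.04), so the numbers were not taken as pairs. All 7 ratios between members kept their sign with a pseudocount of 10 and with each library left out. Without P5 replicate 5 and P12 replicate 4, 7 basement membrane genes were higher in place of 5, 3 other laminin chains (Lamb2 added) and 3 mesenchymal markers higher in place of 2 each, 2 processing enzymes lower in place of 1, and 1 tetraspanin lower in place of 0. Counts of a few reads (Tspan1, Col4a6) limit those genes, whereas no member was below 2266 counts in any library.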

Other observations

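For each member, the profile over the 8 libraries was compared with those of 11345 genes by the root mean square difference of log2 normalized counts centred on each gene's mean, where 0 is an identical profile. Cd151 was nearest to Hspd1 (0.023) and Kcnk1 (0.026), Col17a1 to Psme1 (0.025) and Map7d1 (0.033), and Itgb4 to Ubqln4 (0.033) and Atp13a1 (0.041). Dst was nearest to Zbtb4 (0.041) and Palld (0.042), Lamb3 to Apc (0.056) and Vma21 (0.067), and Plec to Zfp467 (0.060) and Fscn1 (0.061). The nearest profiles of Lama3 were those of Slc39a14 (0.063) and Znrf2 (0.071), and of Itga6 those of Pgk1 (0.077) and Tuba1c (0.083). The members themselves were left out of this search for the nearest profiles. Between members of the complex the smallest differences were those of Col17a1 with Cd151 (0.0996) and with Plec (0.132), and the greatest was that of Lamb3 with Itga6 (1.55). With libraries of 2 ages, most of such a difference is the change between the ages.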
